A study of Mus musculus with 10 samples.

Results

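Splicing factor and other RNA-binding protein genes were examined for their place among the transcription start sites (TSSs) occupied by ARID2 in mouse spermatogenic cells. The set held the protein-coding genes whose symbol begins with Srsf, Hnrnp, Snrp, Sf3a, Sf3b, U2af or Prpf, or with Rbm and a digit. The RefSeq annotation of GRCm38.p6 held 107 such genes among 21774 protein-coding genes. The symbols alone chose them, without any measured value. All mice were wild-type CD1. Spermatogenesis was synchronized with WIN 18,446, an inhibitor of retinoic acid synthesis given from P1 to P10, and with a single dose of retinoic acid (RA) at P11. Spermatogenic cells from these testes were profiled by CUT&RUN at P28 and at P28.5, that is, with an antibody that tethers a nuclease to its target so that the chromatin fragments it cuts can be sequenced. Each age had 2 libraries for ARID2, a subunit found in the PBAF form of the SWI/SNF nucleosome remodeler and not in the BAF form, 2 libraries for BRG1, the ATPase of the complex, and 1 library made without a primary antibody as control. The 2 BRG1 libraries of an age were made with different antibodies.

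The data examined here were the deposited lists of cluster-1 (Cl-1), the ARID2-occupied group in a k-means clustering of TSSs on ARID2 signal averaged over replicates. A list gives positions and gene names, with no signal, no strand and no value for a single replicate. Membership was therefore a yes or no per age, without any measure of replicate spread, and no difference between ages or gene groups was tested. The P28 list had 11553 rows at 7144 positions and the P28.5 list had 8514 rows at 5193 positions. The paper reports that a much smaller share of ARID2-enriched TSSs overlapped its called peaks at P28.5 than at P28. The cell suspension was enriched for late prophase-I and metaphase-I spermatocytes but mixed, so that a listed TSS cannot be assigned to a cell type. The lists hold no expression values against which marker genes could be checked.

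Splicing removes introns in 2 reactions carried out by the spliceosome, which assembles on each intron from small nuclear ribonucleoproteins (snRNPs) and many accessory proteins. SR proteins bind exons and promote the use of nearby splice sites, whereas many heterogeneous nuclear ribonucleoproteins (hnRNPs) coat the transcript and can silence sites. Testis is among the tissues with the most alternative splicing, and spermatocytes transcribe heavily in pachynema, before transcription falls toward the meiotic divisions.

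The promoters of 6 members are printed to show the kinds of place in which listed positions lay. Each is a RefSeq promoter window of GRCm38.p6, with 250 bases before the start and 50 from the start onward, written on the strand of the gene, and 90 of the 107 members had such a window. Capitals mark exact matches, on either strand, to 8 short motifs: CCGGAAG (ETS factors), GCATGCGC (NRF1), AAGATGGC (YY1), GGGCGG (SP and KLF factors), CCAAT (NF-Y), TGACGTCA (the cyclic AMP response element, CRE), TATAAA (the TATA box) and CAACNG (MYB factors), where N is any base. Srsf5 (chr12:80945249-80945548, plus strand) and Hnrnpr (chr4:136310692-136310991, plus strand) were in Cl-1 at both ages. Listed positions lay 5, 6 and 17 bases after this Srsf5 start, and 0, 9, 24, 26 and 32 bases after this Hnrnpr start. Prpf8 (chr11:75486527-75486826, plus strand) and Snrpd3 (chr10:75517792-75518091, plus strand) had a listed position exactly at the start at P28.5 and none in the window at P28. Srsf11 (chr3:158036557-158036856, minus strand) and Hnrnpk (chr13:58402068-58402367, minus strand) had no row of their own name, but listed positions of a divergent neighbour fell within these windows, 76, 81 and 94 bases upstream of this Srsf11 start and 131 bases upstream of this Hnrnpk start.
Srsf5: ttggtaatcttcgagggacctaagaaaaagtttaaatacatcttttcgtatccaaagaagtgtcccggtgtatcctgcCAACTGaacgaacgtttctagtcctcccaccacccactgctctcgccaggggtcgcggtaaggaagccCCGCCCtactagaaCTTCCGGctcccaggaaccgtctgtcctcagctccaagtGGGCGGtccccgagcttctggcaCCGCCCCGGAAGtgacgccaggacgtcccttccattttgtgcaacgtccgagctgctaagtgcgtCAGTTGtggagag
Hnrnpr: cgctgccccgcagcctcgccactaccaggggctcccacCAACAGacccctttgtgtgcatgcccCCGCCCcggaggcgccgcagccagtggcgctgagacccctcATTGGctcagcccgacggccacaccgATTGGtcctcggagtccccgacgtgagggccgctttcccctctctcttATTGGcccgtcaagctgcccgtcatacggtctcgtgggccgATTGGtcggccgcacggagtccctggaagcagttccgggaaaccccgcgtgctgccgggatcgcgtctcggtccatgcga
Prpf8: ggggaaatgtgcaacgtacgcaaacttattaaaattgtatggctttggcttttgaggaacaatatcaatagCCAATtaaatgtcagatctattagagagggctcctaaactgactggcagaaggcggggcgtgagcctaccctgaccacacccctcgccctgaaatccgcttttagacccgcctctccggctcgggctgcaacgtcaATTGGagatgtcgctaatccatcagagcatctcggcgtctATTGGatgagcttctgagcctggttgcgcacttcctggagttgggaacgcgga
Snrpd3: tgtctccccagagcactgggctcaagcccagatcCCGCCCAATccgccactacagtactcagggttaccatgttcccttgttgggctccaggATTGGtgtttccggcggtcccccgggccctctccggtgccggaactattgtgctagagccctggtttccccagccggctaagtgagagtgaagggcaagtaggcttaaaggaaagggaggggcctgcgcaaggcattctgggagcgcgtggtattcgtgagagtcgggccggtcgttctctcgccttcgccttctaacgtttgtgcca
Srsf11: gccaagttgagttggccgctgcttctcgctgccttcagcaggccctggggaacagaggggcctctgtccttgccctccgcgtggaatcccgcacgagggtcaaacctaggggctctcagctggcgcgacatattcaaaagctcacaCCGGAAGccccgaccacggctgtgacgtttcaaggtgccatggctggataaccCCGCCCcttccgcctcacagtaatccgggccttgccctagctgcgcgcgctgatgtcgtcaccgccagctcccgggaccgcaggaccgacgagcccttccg
Hnrnpk: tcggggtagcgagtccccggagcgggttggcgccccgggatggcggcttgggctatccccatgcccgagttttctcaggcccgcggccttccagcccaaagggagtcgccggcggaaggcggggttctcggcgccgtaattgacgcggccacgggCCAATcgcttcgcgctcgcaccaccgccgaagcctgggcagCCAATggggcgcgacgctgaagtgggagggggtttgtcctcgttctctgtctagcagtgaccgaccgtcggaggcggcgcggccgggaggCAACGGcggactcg

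Members of the set were present in both lists, and the shares were above those of protein-coding genes as a whole. By gene name, 40 of 107 members (37.4%, 95% Wilson interval 28.8% to 46.8%) were in Cl-1 at P28, where 16.8% of all protein-coding genes were listed. At P28.5 the number was again 40 (37.4%), where 11.6% of all protein-coding genes were listed. Both lists held 31 of them (29.0%, interval 21.2% to 38.2%), beside 8.48% of all genes. These intervals cover counting error over genes only, and genes are not replicates of the experiment. A further 9 members (8.41%) were listed at P28 alone, close to the 8.33% of all genes, and 9 (8.41%) at P28.5 alone, beside 3.13% of all genes. The remaining 58 had no row under their name at either age. The members took 144 rows of the P28 list and 140 rows of the P28.5 list. When a gene was instead counted if some listed position lay 2000 bp or less from any of its annotated 5′ ends, under any row name, 44 members (41.1%) were marked at P28, 48 (44.9%) at P28.5 and 38 (35.5%) at both ages. The same count over all protein-coding genes gave 17.3%, 14.8% and 10.9%. The grid of members by family shows where the counts by name and by position part.

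A property of the lists touches every count below. Of 83 positions under member names at P28 and 80 at P28.5, 36 at each age equalled an annotated transcript end, and each of these was the lower-numbered end, where plus-strand transcripts begin and minus-strand transcripts stop. For plus-strand members, 31 of 67 listed positions at P28 and 35 of 69 at P28.5 equalled an annotated 5′ end of the gene, and all of them lay within 2000 bp of one. For minus-strand members, 0 of 16 and 0 of 11 equalled one, but 10 at each age lay within 500 bp of one. The other 6 at P28 and 1 at P28.5 lay beyond 2000 bp. By name, 30 of 56 plus-strand members were listed at P28 (53.6%, beside 26.0% of plus-strand protein-coding genes) and 33 at P28.5 (58.9%, beside 20.4%). On the minus strand, 10 of 51 were listed at P28 (19.6%, beside 7.61%) and 7 at P28.5 (13.7%, beside 2.86%). A minus-strand member without a row can therefore not be read as a promoter without ARID2. Of the 58 members with no row at either age, 40 were on the minus strand, beside 9994 of the 17432 protein-coding genes with no row.

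The 7 families differed in their shares. The hnRNP genes had 13 of 21 members in the P28 list (61.9%) and 11 in the P28.5 list (52.4%). These include Hnrnpd at both ages and Hnrnpa1l2-ps2 at P28, whose rows lay 72855 and 716627 bp from their nearest 5′ ends. The SR genes had 5 of 11 (45.5%) and 6 of 11 (54.5%), and the pre-mRNA processing factors of the PRPF family 5 of 13 (38.5%) and 6 of 13 (46.2%). The subunits of the U2 snRNP proteins SF3A and SF3B had 3 of 9 (33.3%) and 4 of 9 (44.4%), the snRNP and Sm proteins 4 of 12 (33.3%) and 3 of 12 (25.0%), and the U2AF genes 2 of 3 and 1 of 3. The RBM genes, which share an RNA recognition motif rather than a place in the spliceosome, had 8 of 38 (21.1%) and 9 of 38 (23.7%). With so few genes in a family, these differences between families were not tested. On the plus strand alone, where 26.0% of all genes were listed at P28, the P28 list held 7 of 8 hnRNP genes, 5 of 8 SR genes, 4 of 8 PRPF genes, 3 of 6 SF3 genes, 3 of 7 snRNP genes, 2 of 2 U2AF genes and 6 of 17 RBM genes. At P28.5, where 20.4% of plus-strand genes were listed, the numbers were 7 of 8, 6 of 8, 6 of 8, 4 of 6, 2 of 7, 1 of 2 and 7 of 17, in the same order.

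**Figure D1:**
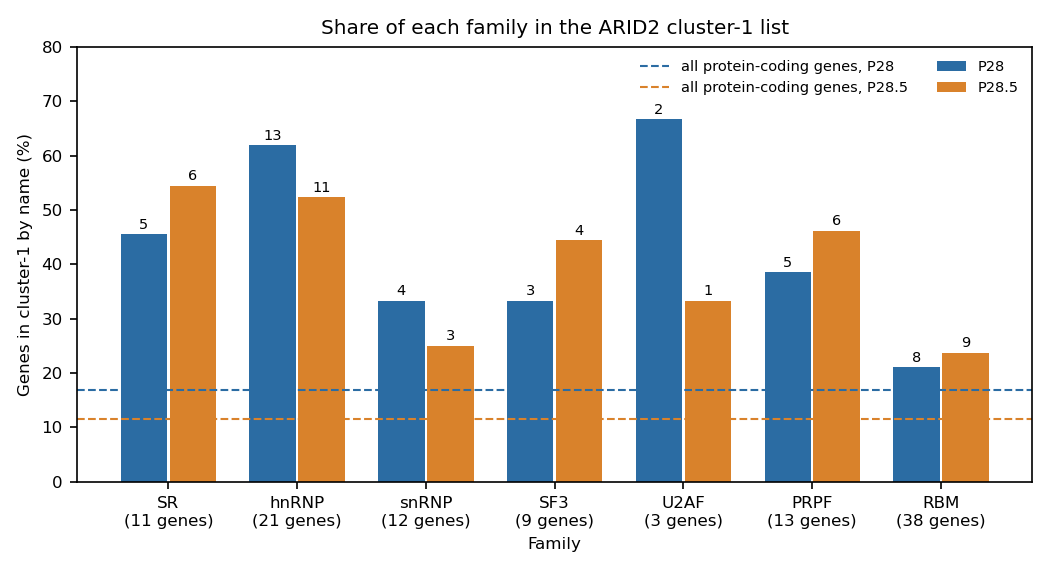
Bars give the percentage of each family with a row under its name at P28 (blue) and P28.5 (orange), with the number of genes above each bar; dashed lines are the shares of all protein-coding genes, 16.8% and 11.6%. The hnRNP family reached 61.9% and 52.4%, and the RBM family stayed nearest to the dashed lines at 21.1% and 23.7%. Genes whose rows lay far from their own start are included.

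Among the SR genes, Srsf1, Srsf3, Srsf5, Srsf9 and Srsf10 were in Cl-1 at both ages and Srsf6 at P28.5 alone, whereas Srsf2, Srsf4, Srsf7, Srsf11 and Srsf12 had no row. Srsf5 (GeneID 20384, chr12:80945495-80950507, plus strand) had 6 rows at each age, at 80945504, 80945505 and 80945516, a few bases past its 2 annotated 5′ ends. Srsf9 (GeneID 108014, chr5:115327163-115333843, plus strand) had 3 rows at each age at 115327165 and 115327177, and the second of these is an annotated 5′ end. Both encode SR proteins that bind exonic sequence, and their positions were the same at both ages. Srsf10 (GeneID 14105, chr4:135855752-135869908, plus strand), whose product can act as a repressor of splicing, had 4 rows at its 5′ end 135856071 at each age. A further row at 135855728, 24 bp upstream of its other 5′ end, was listed at P28 and not at P28.5.

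Srsf1 (GeneID 110809, chr11:88046499-88053757, plus strand) encodes the founding SR protein and has 2 annotated 5′ ends, 88046499 and 88047373. Its 2 rows at each age fell on the downstream end, 88047373, from which 2 of its transcripts start. Srsf3 (GeneID 20383, chr17:29032660-29043372, plus strand), whose product is the smallest SR protein, had 2 rows at its single 5′ end at each age. Srsf6 (GeneID 67996, chr2:162931508-162937121, plus strand) had 1 row at P28.5, exactly at its 5′ end. At P28 the nearest listed position was 85785 bp away.

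Srsf2 (GeneID 20382, chr11:116849897-116853675, minus strand) encodes SC35, a marker protein of nuclear speckles, and had no row of its own. It overlaps the start of Mfsd11, a plus-strand gene. Rows under the name of Mfsd11 lay 141 and 195 bp downstream of a 5′ end of Srsf2 at both ages, and at P28.5 a further 3 lay 89, 340 and 406 bp upstream of its outermost 5′ end. Srsf11 (GeneID 69207, chr3:158010915-158036667, minus strand) does not overlap its divergent plus-strand neighbour Lrrc40, whose 3 positions lay 15, 20 and 33 bp upstream of the outermost 5′ end of Srsf11 at both ages. At these shared promoters the lists do not separate the member from its neighbour. Counted by position, 7 of 11 SR genes were marked at P28 (63.6%, beside 17.3% of all protein-coding genes) and 8 at P28.5 (72.7%, beside 14.8%).

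The hnRNP genes in Cl-1 at both ages were Hnrnpa1, Hnrnpa3, Hnrnpc, Hnrnpd, Hnrnpf, Hnrnph1, Hnrnph3, Hnrnpl, Hnrnpll, Hnrnpr and Hnrnpul2. Hnrnpm and Hnrnpa1l2-ps2 were listed at P28 alone. No hnRNP gene was listed at P28.5 alone. Hnrnpa0, Hnrnpa2b1, Hnrnpab, Hnrnpdl, Hnrnph2, Hnrnpk, Hnrnpu and Hnrnpul1 had no row under their names. Of these 8, 7 lie on the minus strand, beside 13 of all 21 hnRNP genes, and Hnrnph2 is X-linked on the plus strand.

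Hnrnph1 (GeneID 59013, chr11:50375257-50386528, plus strand) encodes a protein that binds runs of guanine. With Hnrnpr it had the most listed positions of the members at P28, 9 each, and it had the most at P28.5, with 11. At P28 its 16 rows covered 9 positions from 50377694 to 50377835, and 8 of these rows shared the position 50377694, one of its 15 annotated 5′ ends. At P28.5 it had 18 rows at 11 positions, with 50378259 and 50378279 added. Hnrnpr (GeneID 74326, chr4:136310942-136345981, plus strand), whose product is related to SYNCRIP, had 13 rows at 9 positions at each age, from 136310942 to 136311106. Hnrnpa3 (GeneID 229279, chr2:75659105-75669407, plus strand) had 5 rows at each age, 3 of them at its 5′ end 75659259. The positions of Hnrnpr and Hnrnpa3 did not differ between the lists.

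Hnrnpa1 (GeneID 15382, chr15:103239943-103246698, plus strand) encodes an abundant splicing repressor. At each age it had 3 rows at its 5′ end 103240397 and 1 row 2 bp further on, and its upstream 5′ end at 103239943 was 454 bp from the nearest listed position. Of the 5 annotated 5′ ends of Hnrnpf, 117906782 and 117907804 were listed at both ages and the nearest listed positions to the other 3 were 2997 to 9490 bp away. Hnrnpl, which binds CA repeats, was listed at both ages at 28810890, the start of 1 transcript. Its other 5′ end, at 28808546, is the start of 7 transcripts and lay 2344 bp away.

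For Hnrnpk, a binder of cytosine-rich sequence (GeneID 15387, chr13:58391132-58403343, minus strand), the nearest listed positions carried the name of Rmi1. They were 79 and 85 bp upstream of 2 of its 6 annotated 5′ ends at both ages, and at P28.5 another lay 271 bp upstream. For Hnrnpdl (GeneID 50926, chr5:100033577-100039936, minus strand), rows named Enoph1 lay 17 and 58 bp upstream of a 5′ end at both ages. For Hnrnpa2b1 (GeneID 53379, chr6:51460434-51470048, minus strand), rows named Cbx3 lay 399, 568 and 723 bp upstream at both ages. Hnrnpu (GeneID 51810, chr1:178321108-178338891, minus strand), which encodes a chromatin-associated scaffold protein, had no listed position nearer than 18662 bp at either age.

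Some rows under hnRNP names were not at the gene's own start. The 4 rows of Hnrnpd (GeneID 11991, chr5:99955935-99979130, minus strand), which encodes the AU-rich element binder AUF1, were all at 99906083 at each age, 72855 bp from its nearest 5′ end and outside the gene. The row of Hnrnpa1l2-ps2 (GeneID 545091, chr15:22713820-22714984, minus strand) at P28 lay 716627 bp away, at the 3′ end of the noncoding gene Gm41278. The 3 rows of Hnrnpm at P28 were 234 bp upstream of its 5′ end, at the 3′ end of Marchf2. Those of Hnrnpc were 60 and 67 bp upstream and that of Hnrnph3 was 69 bp upstream, at both ages. The 2 rows of Hnrnpll fell 46 bp inside the gene, on a 5′ end of 4933407O12Rik on the other strand.

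The snRNP genes encode proteins bound to the small nuclear RNAs. Snrpa, encoding the U1 protein that binds U1 RNA, and Snrpd2, encoding an Sm ring protein, were in Cl-1 at both ages. Snrpb2, encoding a U2 protein, and Snrpc, encoding another U1 protein, were listed at P28 alone, and Snrpd3, a further Sm gene, at P28.5 alone. Snrpa1, Snrpb, Snrpd1, Snrpe, Snrpf, Snrpg and Snrpn had no row. Of these 7 genes without a row, Snrpb, Snrpe, Snrpf and Snrpn lie on the minus strand.

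Snrpa (GeneID 53607, chr7:27187006-27196271, minus strand) had 4 rows at each age, 88 to 93 bp inside its outermost 5′ end. Snrpc (GeneID 20630, chr17:27840028-27851968, plus strand) had 1 row at its 5′ end 27840087 at P28, and at P28.5 the nearest listed position was 69219 bp away. Snrpb2 (GeneID 20639, chr2:143063069-143072052, plus strand) had 1 row at its 5′ end at P28, and the nearest listed position at P28.5 was 160104 bp away. Snrpd3 (GeneID 67332, chr10:75518042-75535440, plus strand) had 1 row at its 5′ end at P28.5, with none within 118577 bp at P28. Each of these 3 genes differed between the ages by a single row at an annotated start. Snrpb (GeneID 20638, chr2:130171636-130179382, minus strand) had no listed position within 94985 bp at either age. Snrpn (GeneID 20646, chr7:59982495-60450177, minus strand), the imprinted paralogue of Snrpb, had none within 573059 bp at P28 and 775553 bp at P28.5.

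Among the SF3 genes, which form the U2 subcomplexes that hold the branch site, Sf3a2 and Sf3b5 were in both lists, Sf3a1 at P28 alone, and Sf3b4 and Sf3b6 at P28.5 alone. Sf3a3, Sf3b1, Sf3b2 and Sf3b3 had no row. Sf3a2 (GeneID 20222, chr10:80798735-80804922, plus strand) had rows at its 5′ end and 95 bp downstream at both ages, and a row named Plekhj1 lay 146 bp upstream. Sf3b5 (GeneID 66125, chr10:13008450-13009183, plus strand) had 1 row at its 5′ end at each age. Sf3a1 (GeneID 67465, chr11:4160354-4182541, plus strand) had 1 row at its 5′ end at P28 and its nearest listed position at P28.5 was 26479 bp away.

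Sf3b4 (GeneID 107701, chr3:96172506-96177564, plus strand) and Sf3b6 (GeneID 66055, chr12:4817608-4827659, plus strand), the latter encoding a protein that lies at the branch point, each had 1 row at the 5′ end at P28.5. At P28 the nearest listed positions were 8721 and 61424 bp away. Sf3b1 (GeneID 81898, chr1:54985169-55027501, minus strand), the large subunit that clamps the branch helix, had no listed position within 25269 bp at either age.

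U2AF recognizes the 3′ splice site. U2af2 (GeneID 22185, chr7:5060885-5079945, plus strand), encoding the subunit that binds the polypyrimidine tract, was in Cl-1 at both ages with 2 rows at 5062143. That is 1 of its 3 annotated 5′ ends and lies 1258 bp from 5060885, the start of 8 of its transcripts. U2af1l4 (GeneID 233073, chr7:30563340-30565364, plus strand), a shorter relative of U2af1, had 1 row at its 5′ end at P28 and none within 10784 bp at P28.5. U2af1 (GeneID 108121, chr17:31647081-31659148, minus strand), encoding the subunit that reads the terminal AG of the intron, had no listed position within 93981 bp at either age.

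The PRPF genes in Cl-1 at both ages were Prpf4, Prpf4b, Prpf19 and Prpf31. Prpf18 was listed at P28 alone, Prpf6 and Prpf8 at P28.5 alone, and 6 genes had no row, among them Prpf3, Prpf38a, Prpf38b, Prpf39 and Prpf40b. Prpf4b (GeneID 19134, chr13:34874820-34906064, plus strand), encoding a kinase that acts on the tri-snRNP, had 21 rows at each age, more than any other member. They covered the 3 positions 34875294, 34875494 and 34875500, of which the last is an annotated 5′ end. Prpf4 (GeneID 70052, chr4:62408762-62426990, plus strand), encoding a U4/U6 protein, had rows at 62408767 and 62408783 at each age. Prpf19 (GeneID 28000, chr19:10895231-10909559, plus strand), encoding the ubiquitin ligase of the complex that activates the spliceosome, had 2 rows at its 5′ end 10895231 at each age.

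Prpf8 (GeneID 192159, chr11:75486777-75509447, plus strand) encodes the U5 protein at the catalytic centre and Prpf6 (GeneID 68879, chr2:181601319-181655661, plus strand) the U5 protein that bridges the tri-snRNP. Each had 1 row at its single 5′ end at P28.5. At P28 the nearest listed position was 23317 bp from Prpf8 and 68518 bp from Prpf6. Prpf31, encoding another U4/U6 protein, had its 2 rows at P28.5 at its 5′ end 3629985, whereas its 1 row at P28 was at 3631245, 1260 bp downstream. Counting by name put Prpf31 in both lists, although the listed positions were not shared. Prpf18 (GeneID 67229, chr2:4622058-4652135, minus strand), a factor of the second splicing step, was listed at P28 at 4622058, the 3′ end of the gene, and at 4622167, both 29968 bp or more from its start.

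Prpf38a (GeneID 230596, chr4:108564867-108579336, minus strand) had no row of its own name, but at P28.5 a row named Orc1 lay 118 bp upstream of its 5′ end. At P28 the nearest listed position was 40609 bp away. By position, 5 of 13 PRPF genes were marked at P28 (38.5%, beside 17.3% of all protein-coding genes) and 8 at P28.5 (61.5%, beside 14.8%).

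The RBM genes are the largest and least uniform family, with roles from splicing to RNA decay and ribosome assembly. Rbm4b, Rbm8a, Rbm25, Rbm27, Rbm33 and Rbm48 were in Cl-1 at both ages. Rbm12b2 and Rbm15 were listed at P28 alone, and Rbm15b, Rbm19 and Rbm38 at P28.5 alone. The 27 RBM genes with no row were Rbm3, Rbm4, Rbm5, Rbm6, Rbm7, Rbm10, Rbm11, Rbm12, Rbm12b1, Rbm14, Rbm17, Rbm18, Rbm20, Rbm22, Rbm24, Rbm26, Rbm28, Rbm31y, Rbm34, Rbm39, Rbm41, Rbm42, Rbm43, Rbm44, Rbm45, Rbm46 and Rbm47. Of these 27, 18 lie on the minus strand, beside 21 of all 38 RBM genes.

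Rbm25 (GeneID 67039, chr12:83632208-83683127, plus strand), a splicing regulator, had 6 rows at each age at 83632230, 83632234 and 83632263, 9 to 20 bp from its 5′ ends. Rbm33 (GeneID 381626, chr5:28316836-28419244, plus strand) had 4 rows at each age at 28316890, 28316891 and 28317189. Rbm12b2 (GeneID 77604, chr4:12089370-12105618, plus strand) had 4 rows at 4 positions at P28, from 12089370 to 12089476, and no listed position within 122796 bp at P28.5. No other member had as many positions listed at P28 and none at P28.5. Rbm8a, whose product Y14 is part of the exon junction complex, had 2 rows at its single 5′ end at each age.

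Of the 3 RBM genes listed at P28.5 alone, Rbm19 (GeneID 74111, chr5:120116513-120198971, plus strand), which acts in ribosome assembly, had 1 row at its 5′ end, with none within 472510 bp at P28. Rbm38 (GeneID 56190, chr2:173021891-173034734, plus strand), a regulator of mRNA stability, had rows at 173021902 and 173021907, where the nearest listed position at P28 was 21774 bp away. Rbm15b (GeneID 109095, chr9:106880928-106887075, minus strand) had 1 row 340 bp upstream of its 5′ end, with none within 242541 bp at P28. Its paralogue Rbm15 (GeneID 229700, chr3:107305511-107334460, minus strand) also serves the complex that methylates adenosine in mRNA. Its 1 row at P28 lay inside the gene at the 3′ end of a transcript, 7179 bp from the nearest 5′ end. The row of Rbm15 was thus not at its start.

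Rbm5, Rbm17 and Rbm39, whose products regulate the choice of exons or splice sites, had no row. Rbm5 (GeneID 83486, chr9:107740495-107771007, minus strand) had no listed position within 164913 bp at P28 and 179879 bp at P28.5. Rbm17 (GeneID 76938, chr2:11585439-11603199, minus strand) had none within 174554 bp at either age. Rbm39 (GeneID 170791, chr2:156147239-156180238, minus strand) had none within 46841 bp at P28 and 652130 bp at P28.5. All 3 lie on the minus strand, whose starts were seldom among the listed positions. Rbm46 (GeneID 633285, chr3:82836521-82876512, minus strand), a germ-cell RNA-binding protein gene needed for meiosis, had no row, but its divergent noncoding neighbour Rbm46os was listed 193 bp upstream at both ages. For Rbm7 (GeneID 67010, chr9:48488697-48495330, minus strand), encoding a subunit of a nuclear RNA decay complex, rows named Gm5617 lay 13 bp upstream at both ages.

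Where a member was in both lists, its positions were mostly the same. Of 31 such members, 27 had identical positions at P28 and P28.5, 3 (Hnrnph1, Rbm48 and Srsf10) shared some, and 1 (Prpf31) shared none. Shared positions were not counted over all protein-coding genes, so this is not shown to be a trait of the members. Members listed at 1 age changed from a row at or near the start to no listed position within 2000 bp. The exceptions were Prpf18, Rbm15 and Hnrnpa1l2-ps2, which had no row near their start at either age. Of the 9 members listed at P28.5 alone, 8 were plus-strand genes with a row exactly at an annotated 5′ end. Of the 9 listed at P28 alone, 5 were plus-strand genes with a row at the 5′ end and the other 4 were minus-strand genes. Among all protein-coding genes, 602 of the 681 listed at P28.5 alone and 1217 of the 1814 listed at P28 alone were on the plus strand. The strand make-up of these members is therefore not read as particular to them.

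**Figure D2:**
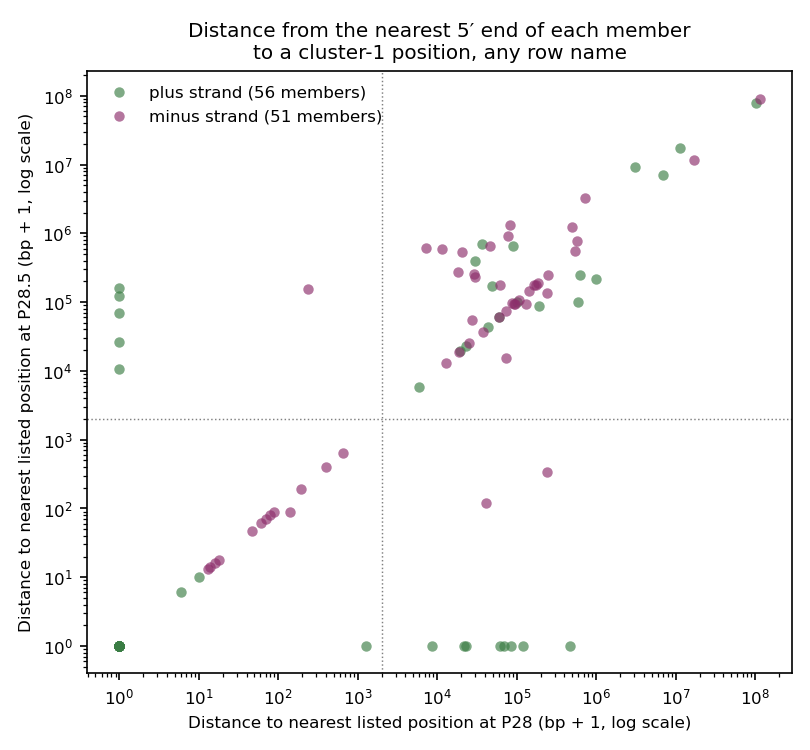
Each point is a member, placed by the distance in bp (plus 1, log scale) from its nearest 5′ end to the nearest listed position at P28 (x axis) and P28.5 (y axis), whatever the row's name; dotted lines mark 2000 bp. In the lower left are the 38 members marked at both ages, and the points along either axis are members marked at 1 age alone.

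Of the 51 minus-strand members, 35 had no listed position within 2000 bp at either age. The other 16 (31.4%, beside 11.6% of minus-strand protein-coding genes) had one, under their own name or that of a neighbour. A 5′ end of another gene on the opposite strand lay within 1000 bp of a 5′ end for 43 members (40.2%), beside 21.7% of all protein-coding genes. Of the 22 plus-strand members with such a neighbour, 17 were listed by name at P28 (77.3%, beside 42.1% of all such genes) and 15 at P28.5 (68.2%, beside 38.4%). Of the 34 without one, 13 (38.2%, beside 21.6%) and 18 (52.9%, beside 15.4%) were listed. By name on the minus strand, 6 of 21 members with a neighbour were listed at each age (28.6%, beside 15.0% at P28 and 10.1% at P28.5), and of the 30 without one 4 (13.3%, beside 5.55%) and 1 (3.33%, beside 0.834%). Counted by position, 13 of these 21 members had a listed position within 2000 bp at P28 (61.9%) and 14 at P28.5 (66.7%). Of the 30 minus-strand members without a neighbour, 1 (3.33%) had one at each age. All protein-coding genes showed the same order, with 37.4% and 36.2% of minus-strand genes with such a neighbour marked by position, and 1.80% and 0.892% of those without. The count by position includes the neighbour's own rows, so that part of this difference lies in how it is made.

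**Figure D3:**
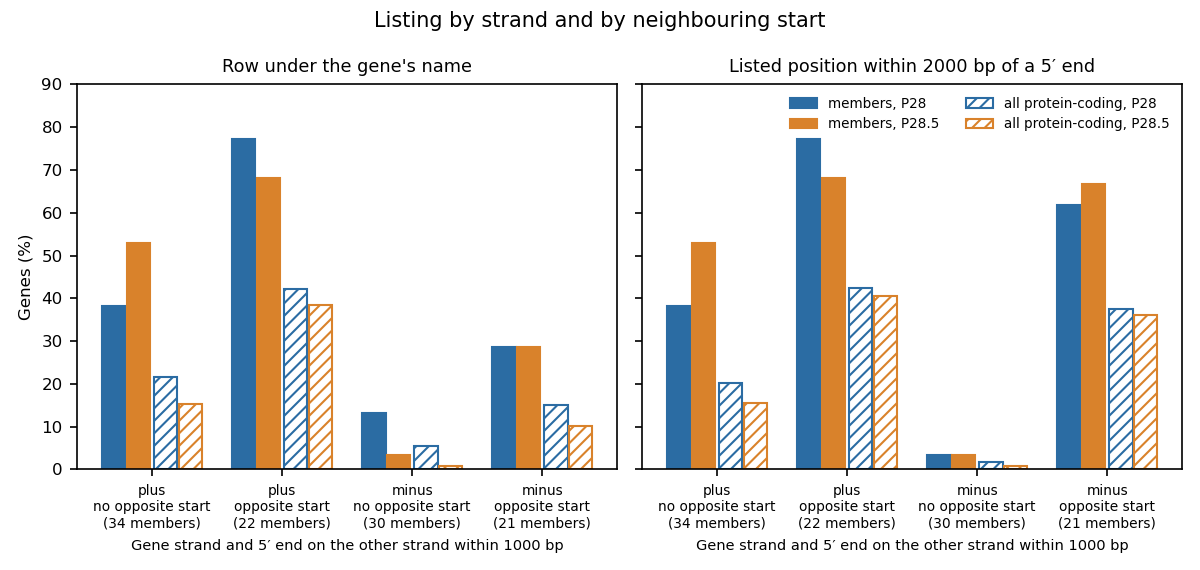
Bars give the percentage of members (filled) and of all protein-coding genes (hatched) in Cl-1 at P28 (blue) and P28.5 (orange), by strand and by whether a 5′ end on the other strand lies within 1000 bp; the left panel counts by name and the right by a listed position within 2000 bp. In the right panel, minus-strand members with an opposite start reach 61.9% and 66.7%, and those without stay at 3.33% at each age.

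**Figure D4:**
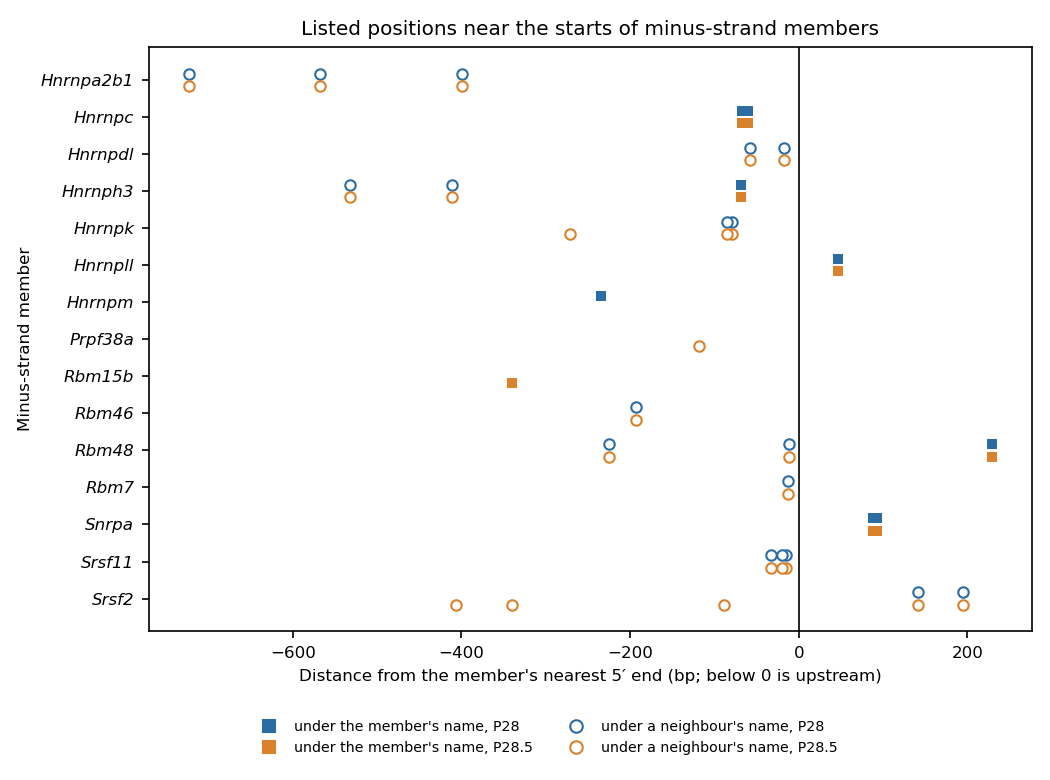
For minus-strand members with a listed position within 2000 bp, the x axis gives the distance in bp from the nearest 5′ end of the member, with upstream below 0; filled squares are rows under the member's name and open circles rows under a neighbour's name, blue at P28 and orange at P28.5. The neighbours' rows lie from 723 bp upstream of Hnrnpa2b1 to 195 bp inside Srsf2, and no row falls on a member's own 5′ end.

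The members had CpG-rich promoters. The observed CpG frequency divided by the expected one, within 500 bp of the outermost 5′ end, had a median of 0.772 over the members, from 0.083 to 1.129, and a median of 0.516 over all protein-coding genes. In quintiles of this ratio over all protein-coding genes, 49 members (45.8%) were in the highest and 36 (33.6%) in the next. Within the highest quintile, 16 of 49 members were listed by name at P28 (32.7%, beside 28.8% of all genes there) and 19 at P28.5 (38.8%, beside 27.0%). Within the next, 16 of 36 were listed at P28 (44.4%, beside 24.9%) and 15 at P28.5 (41.7%, beside 19.1%). All protein-coding genes were also weighted to the members' make-up by CpG quintile, strand and opposite-strand start, a weighting chosen after seeing the data. Their share was then 25.4% at P28, 21.0% at P28.5 and 15.6% at both ages, beside 37.4%, 37.4% and 29.0% of the members. What lies behind the difference was not tested. Among the members themselves, the median was 0.772 for those at both ages, 0.680 for those at P28 alone, 0.755 for those at P28.5 alone and 0.791 for those at neither. Counted by position at P28.5, 23.1% of members in the middle quintile, 44.4% in the next and 53.1% in the highest were marked, beside 8.75%, 25.2% and 34.4% of all genes. In the lowest quintile 0 of 2 members were marked, and in the second lowest 3 of 7 (42.9%), beside 2.14% and 3.35%. At P28 the members' shares by position, from the second lowest quintile to the highest, were 42.9%, 15.4%, 47.2% and 44.9%, with no steady rise. Hnrnpu had the lowest ratio, 0.083, and Srsf6, listed at P28.5 alone, the highest, 1.129. The ratio describes the outermost 5′ end alone, and other starts of a gene were not scored. Hnrnpu has another annotated 5′ end at 178337815. Hnrnph1, with a ratio of 0.292, was scored at 50375257, whereas its listed positions begin at 50377694.

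The X and Y chromosomes held 5 members, Hnrnph2, Rbm3, Rbm10 and Rbm41 on X and Rbm31y on Y, and none was listed by name or by position. Among all protein-coding genes on X, 0 of 963 had a row at P28 and 2 had one at P28.5 (0.208%). The sex chromosomes of spermatocytes are silenced through most of prophase-I, but a link between this and the lists was not tested. Among the 102 autosomal members, 40 were listed at each age (39.2%), beside 17.8% and 12.3% of autosomal protein-coding genes.

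A gene with more annotated transcripts can have more starts at which a row could lie, so listing was also counted by number of transcripts. An effect of transcript number was not tested. Members had a median of 4 transcripts and all protein-coding genes a median of 2. Of the 26 members with 1 transcript, 6 were listed at P28 (23.1%, beside 11.4% of all genes with 1 or none) and 10 at P28.5 (38.5%, beside 7.59%). Of the 38 with 2 to 4 transcripts, 18 (47.4%, beside 17.9%) and 15 (39.5%, beside 12.0%) were listed. Of the 43 with 5 or more, 16 (37.2%, beside 22.4%) and 15 (34.9%, beside 16.2%) were listed. The members were above all genes in each class.

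The motifs were counted in the promoter windows of members with and without a listed position nearby. The ETS letters, of which the printed Srsf5 window holds 2 matches and the Srsf11 window 1, were in 12 of 48 member windows with a listed position within 500 bp of the start (25.0%) and in 18 of 68 without (26.5%). They were in 8.86% of all 32851 windows and in 21.5% of all windows with a listed position. The SP and KLF letters were in 32 of 48 (66.7%) and 34 of 68, beside 35.7% of all windows and 66.5% of all windows with a listed position. NF-Y letters, of which the printed Hnrnpr window holds 4 matches, were in 21 (43.8%) and 32 (47.1%), beside 37.4%, and MYB letters in 18 (37.5%) and 28 (41.2%), beside 35.0%. The TATA letters were in 4 (8.33%) and 10 (14.7%), beside 13.6%. NRF1, YY1 and CRE letters were each in at most 3 member windows of either kind. Their shares were 4.17%, 6.25% and 2.08% of member windows with a listed position and 2.94%, 4.41% and 1.47% without. Over all windows they were 2.71%, 2.75% and 1.79%, and over all windows with a listed position 7.66%, 5.42% and 4.55%. The ETS letters were thus in a larger share of member windows than of all windows, whether or not the member window was near a listed position. A match to these letters is a description and not a bound site, and several windows can belong to 1 gene.

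Other genes of the splicing machinery were counted for comparison. Of 139 other splicing genes, written from gene function and including LSM, PRP19-complex, exon junction and regulatory factors, 45 were in the P28 list (32.4%) and 46 in the P28.5 list (33.1%), with 39 at both ages (28.1%). The shares over all protein-coding genes were 16.8%, 11.6% and 8.48%. On the plus strand, 40 of 69 were listed at each age (58.0%), where the plus-strand members were at 53.6% and 58.9% and all plus-strand genes at 26.0% and 20.4%. On the minus strand, 5 of 70 (7.14%) and 6 of 70 (8.57%) were listed, where the members were at 19.6% and 13.7% and all genes at 7.61% and 2.86%. Of 53 genes for DEAD and DEAH box RNA helicases, several of which drive the remodelling steps of the spliceosome, the P28 list held 13 (24.5%) and the P28.5 list 11 (20.8%), with 7 at both ages (13.2%). Differences between these sets and the members were not tested.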

How the data were processed

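CUT&RUN data from synchronized CD1 testes (P28 and P28.5, with 2 ARID2, 2 BRG1 and 1 no-primary-antibody library each) were deposited by the authors. The authors trimmed reads with TrimGalore, aligned them to mm10 with Bowtie2, made BAM files with SAMtools and made coverage tracks with deepTools without blocklisted regions or PCR duplicates. They scaled libraries with csaw factors, took log2 ratios to the control, averaged replicates and clustered RefSeq TSSs by k-means. The 2 lists analysed here, one per age, were deposited by the authors as genomic positions with gene symbols, in no unit of signal or count, so depth gives no precision for a single TSS. Averaging before clustering removes replicate spread, and a TSS near the cluster border can change sides with a small change in signal. BRG1 libraries, peaks and signal tracks were not analysed here.

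Positions were compared with transcript ends of RefSeq GRCm38.p6, whose primary coordinates are those of mm10. A gene counted as listed when a row carried its symbol, or a synonym of a single gene; no member needed a synonym. CpG ratios were taken within 500 bp of the outermost 5′ end and divided into 5 quintiles. Motifs were searched in RefSeq promoter windows. Python 3.11.15, numpy 2.4.6, pandas 2.3.3, scipy 1.17.1, pysam 0.24.0 and matplotlib 3.10.9 were used, and the counting was tested on simulated lists.

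Members and lists were chosen with earlier results of these data known. Full positions are given for the 3 listed members of each family with the most listed positions, every member listed at P28.5 alone, every listed member without a row within 2000 bp of its 5′ ends, every unlisted member with a listed position within 500 bp of one, and 15 widely known members; other values named were chosen after they were seen. Alternatives changed the matching of rows to genes, strand, families, sex chromosomes and background. The planned protein features were not analysed here, and 1 member is counted but not reported by name.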

Additional observations from a re-analysis of the deposited data

How the results depend on the processing

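Each list comes from replicates averaged by the authors, so leaving out single replicates was not possible. No paired analysis was possible because the lists carry no replicate values and no result comes from a test. Every count of members stayed within 1.5 times its value under the other ways of matching rows to genes, and without the RBM or the sex-linked genes the shares stayed within their intervals. Strand moved the shares: plus-strand members were at 53.6% (P28), 58.9% (P28.5) and 44.6% (both ages), and minus-strand members at 19.6%, 13.7% and 11.8%. The background moved with its definition. It was 8.23%, 5.45% and 3.97% with all annotated genes and 17.8%, 12.3% and 8.97% without sex-linked genes. Weighted to the members' CpG quintiles it was 24.0%, 19.9% and 14.6%, and weighted also by strand and opposite-strand start 25.4%, 21.0% and 15.6%, alternatives chosen after seeing the data. The members' shares stayed above each of these backgrounds, except for the minus-strand members, which lay between the minus-strand background and that of all genes weighted by CpG.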
